A study of Mus musculus with 6 samples.

Results

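Iron handling in mouse ovarian surface epithelial cells was followed through 10 genes, grouped by role. They are *Tfrc*, *Trf*, *Slc11a2*, *Steap3* and *Cybrd1* for uptake, *Fth1* and *Ftl1* for storage, *Slc40a1* and *Heph* for export, and *Ireb2* for regulation. All 10 had a row among the 20405 genes with a symbol in the deposited table. The genes were chosen by function, with the fall of *Cybrd1* on these arrays already known, and the probe set of each gene was chosen by its highest mean over the 6 arrays. That choice of probe set mattered for *Ftl1*, which had 2, while the other 9 genes had 1 each.

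RNA came from early passage M0505 cells, a line of FVB/N ovarian surface epithelium, and from STOSE cells, which are transformed and descend from M0505 cells kept in prolonged passage. Each line was read on 3 whole-transcript Affymetrix mouse arrays, whose labels call the samples biological replicates without naming separate cultures, so the p-values measure the spread between these arrays and some of it may be technical. Both lines are FVB/N, no engineered allele or added agent is named for either, and both grew in the same medium with fetal calf serum, EGF and a supplement called ITSS. Each group is 1 cell line, so transformation and time in culture cannot be told apart.

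Most cells take up iron as ferric iron bound to transferrin, which enters with the transferrin receptor. In the acid endosome the iron is released, reduced to the ferrous form and carried into the cytosol by a divalent metal transporter. Iron that is not used is stored inside the ferritin shell, built of heavy and light chains, or leaves through ferroportin, after which a copper ferroxidase returns it to the ferric form. Iron regulatory proteins bind hairpins in the messenger RNAs of ferritin, ferroportin and the transferrin receptor and set their translation or stability, so much of the control of ferritin is not visible in RNA amounts.

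The values are robust multi-array average (RMA) values on the log2 scale, so a difference of 1 is a 2-fold difference in signal. A gene was called changed at a limma adjusted p under 0.05 over all 20405 genes and at least a 2-fold difference. As a measure of background, the 95th percentile of 1134 olfactory receptor probe sets was 4.74. The median over genes lay between 6.46 and 6.49 on the M0505 arrays and between 6.25 and 6.29 on the STOSE arrays, whereas the median over all 28944 probe sets lay between 5.64 and 5.68 on the 6 arrays. Centring each array on its median over genes therefore adds 0.20 to every log2 fold change and moves the median over all genes from 0.08 to 0.28. It turns the split of calls from 1000 higher and 1548 lower (39.2% higher) to 1466 higher and 1177 lower (55.5% higher), and members whose direction depends on it are named below. Of 10 ovarian surface epithelium markers, all 10 lay above the background in both lines. *Krt19* (47.2-fold), *Krt8* (23.5-fold) and *Krt7* (2.04-fold) were called lower in STOSE cells, and the other 7 were not called. Of these 7, *Krt18* (1.79-fold), *Wt1*, *Msln*, *Upk3b* and *Upk1b* were lower by less than 2-fold. *Lgals7* and *Cdh2* were higher, by 0.43 and 0.18 on the log2 scale. The median log2 fold change of the 10 was −0.62, against −5.56 for *Krt19* and −4.55 for *Krt8*. Of 6 erythroid markers, 2 lay above the background in each line and 0 were called. Of 5 granulosa, 5 endothelial and 6 leukocyte markers, 1 each was called, and these were *Inha*, *Kdr* and *Cd68*, all lower in STOSE cells. The mean level of the epithelial list lay between 11.02 and 11.04 on the M0505 arrays and between 9.61 and 9.75 on the STOSE arrays, that of the erythroid list between 4.81 and 4.85 and between 4.75 and 4.90. The leukocyte list went from 5.03 to 5.09 down to 4.63 to 4.73, the endothelial list from 5.33 to 5.42 down to 4.29 to 4.34, and the granulosa list from 5.83 to 5.88 down to 4.92 to 5.17. The median log2 fold changes of these lists were 0.05, 0.01 and −0.13. Their means thus fell mainly through *Cd68* (7.08-fold), *Kdr* (35.9-fold) and *Inha* (15.3-fold). The defining leukocyte gene *Ptprc* lay under the background in both lines. The part of these shifts in the iron results was not tested.

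Of the 9 iron genes other than *Cybrd1*, 2 were called lower in STOSE cells and 0 were called higher. They were *Steap3*, which encodes a reductase of ferric iron, and *Slc40a1*, which encodes ferroportin. *Cybrd1*, which encodes another reductase of ferric iron, was also far lower, but it was listed with that fall known, so it is described and not counted as a result. Over all genes 7.59% were called lower and 4.90% higher. The ferritin chains and the transferrin receptor differed little or not beyond their spread, and *Slc11a2* and *Trf* were higher in STOSE cells by less than 2-fold. At the adjusted p alone, without a fold threshold, 2 of the 9 were higher and 4 lower, against 31.6% and 24.8% of all genes. With each array centred on its gene median 4 were higher and 2 lower, but no share over all genes was computed at that setting. At an unadjusted p under 0.05, 3 of the 9 were higher and 4 lower, against 7158 and 5330 of all 20405 genes. The STOSE arrays lay all above or all below the M0505 arrays in 7 of the 9 genes, against 64.6% of all genes. The median log2 fold change of the 9 was −0.12, against 0.08 for all genes. Since the arrays read RNA pooled from many cells, fewer cells with a transcript and less of it per cell cannot be told apart.

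**Figure D1:**
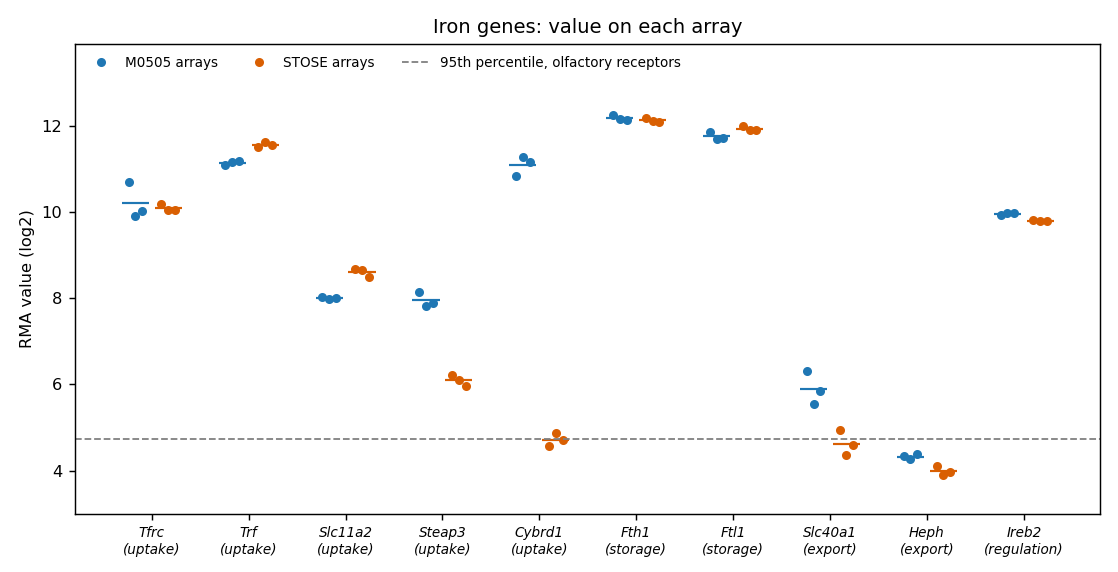
RMA value (log2, vertical axis) of the 10 iron genes on each of the 3 M0505 and 3 STOSE arrays, with short lines at the means and a dashed line at the olfactory receptor 95th percentile of 4.74. *Cybrd1*, *Steap3* and *Slc40a1* have all 3 STOSE points below all 3 M0505 points, *Cybrd1* and *Slc40a1* reach the dashed line in STOSE cells, and 1 M0505 array of *Tfrc* stands at 10.71 above the other two.

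*Cybrd1* encodes duodenal cytochrome b, a membrane reductase best known for reducing dietary iron in the gut. It stood at 10.83, 11.28 and 11.17 on the M0505 arrays and at 4.57, 4.87 and 4.71 on the STOSE arrays. Every STOSE array was far below every M0505 array, and 1 of the 3 STOSE arrays exceeded the background of 4.74. The means were 11.09 ± 0.23 (SD, n = 3) and 4.72 ± 0.15, an 83.0-fold difference in signal. The STOSE signal cannot be told from that of genes taken to be silent, so the size of the fold is set by the background of the array. No test is given, because this gene was taken up for its fall.

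*Steap3* encodes the reductase that works in the transferrin endosome. Its values were 8.15, 7.81 and 7.89 in M0505 cells and 6.21, 6.11 and 5.96 in STOSE cells. The lines did not overlap, and all 6 arrays lay above the background. *Steap3* fell by 1.86 on the log2 scale (standard error 0.10, limma adjusted p = 1.48e-06), a 3.62-fold difference. Leaving out any 1 array gave values between 3.38-fold and 3.79-fold. It ranked 582 among the falls. *Cybrd1*, the other reductase of the list, was taken up for its fall, so only *Steap3* counts as a result among the reductases.

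*Steap1*, *Steap2*, *Steap4* and *Frrs1*, related genes of the list of other uptake genes, were singled out here after their values were seen. *Steap1* and *Steap4* were higher in STOSE cells, by 1.87-fold (adjusted p = 0.000128) and 1.69-fold (adjusted p = 0.000614), with *Steap4* above the background on 2 of 3 M0505 arrays. *Steap2* was lower by 1.30-fold (adjusted p = 0.000424), and *Frrs1* was at 10.17 and 10.13. None of these 4 reached 2-fold, although *Steap1* did with each array centred on its gene median or without M0505 replicate 1.

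The stretch before the start of *Cybrd1* is shown beside that of *Tfrc*, the uptake gene that did not differ beyond its spread, because hypoxia-inducible factors are known to act on both genes. The sequences are the 250 bases before the RefSeq gene start in build GRCm38.p6, both on the plus strand, at chr2:71117804-71118053 for *Cybrd1* and chr16:32608646-32608895 for the first of the 2 starts listed for *Tfrc*. Capitals mark GCGTG, a form of the core bound by these factors, or its reverse complement CACGC.
Cybrd1: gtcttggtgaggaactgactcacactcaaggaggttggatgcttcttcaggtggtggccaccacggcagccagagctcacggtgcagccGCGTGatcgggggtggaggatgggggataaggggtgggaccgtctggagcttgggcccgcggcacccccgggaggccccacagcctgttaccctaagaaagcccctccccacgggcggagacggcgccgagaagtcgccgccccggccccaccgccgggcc
Tfrc: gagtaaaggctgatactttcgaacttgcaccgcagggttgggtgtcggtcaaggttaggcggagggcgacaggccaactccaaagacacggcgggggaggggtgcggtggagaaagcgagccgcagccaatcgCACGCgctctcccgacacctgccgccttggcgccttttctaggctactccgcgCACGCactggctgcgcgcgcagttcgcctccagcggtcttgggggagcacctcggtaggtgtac
The *Cybrd1* window held 1 match to GCGTG and the *Tfrc* window held 2, and neither held the other form, ACGTG, on either strand. The window of the other *Tfrc* start, which overlaps the one shown, held 2 matches to GCGTG and 1 to ACGTG. Of 32851 windows of this length in the RefSeq table, 28.2% held GCGTG, 16.6% held ACGTG and 38.6% held at least one of them. ACGTG also lies inside the E-box CACGTG, which was in 6.02% of windows and in no window of a member. The antioxidant core TGACNNNGC was in 10.2% of windows and also in no window of a member. Both stretches were rich in CG pairs, with 19 in *Cybrd1* and 25 in *Tfrc*, where the median over all windows was 6. Windows were listed for 6 of the 10 genes, 11 windows in all, and *Slc40a1*, *Slc11a2*, *Trf* and *Heph* were not among them. GCGTG was in 6 of these 11 windows, which were those of *Cybrd1* and *Ftl1*, both of *Tfrc*, 1 of 2 of *Fth1* and 1 of 4 of *Steap3*. The windows of *Steap3* held 3 to 11 CG pairs. A match is a description of letters and not of binding.

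*Tfrc* encodes the transferrin receptor. It stood at 10.71, 9.91 and 10.02 in M0505 cells and at 10.19, 10.04 and 10.05 in STOSE cells. The lines overlapped, with M0505 replicate 1 above every other array and M0505 replicate 2 below every other. The log2 fold change was −0.12 (95% interval −0.55 to 0.31, limma adjusted p = 0.614). Its direction was not settled, since it was 0.13 (adjusted p = 0.191) without M0505 replicate 1 and 0.082 (adjusted p = 0.687) with each array centred on its gene median.

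*Trf* encodes transferrin itself, the secreted iron carrier. Its values were 11.08, 11.16 and 11.19 in M0505 cells and 11.50, 11.62 and 11.56 in STOSE cells. All STOSE arrays lay above all M0505 arrays. The difference was 1.33-fold (adjusted p = 0.000538, with a log2 fold change of 0.42 and a standard error of 0.06), under the 2-fold threshold.

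*Slc11a2* encodes the divalent metal transporter DMT1, which carries ferrous iron out of the endosome. It stood at 8.03, 7.98 and 7.99 in M0505 cells and at 8.68, 8.65 and 8.49 in STOSE cells. The lines did not overlap, and the M0505 arrays lay within 0.05 of each other. At 1.52-fold (adjusted p = 8.67e-05, with a log2 fold change of 0.61 and a standard error of 0.07) it was the member with the largest difference toward STOSE cells, and leaving out any 1 array gave 1.49-fold to 1.59-fold. Within uptake the members other than *Cybrd1* thus differed in direction, with *Steap3* lower and *Slc11a2* and *Trf* higher by less than 2-fold.

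**Figure D2:**
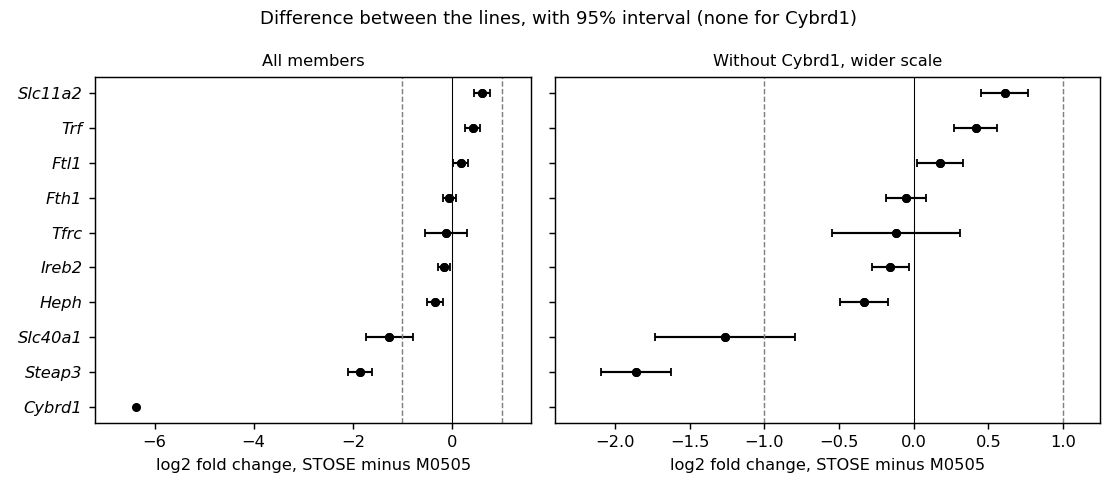
Log2 fold change of STOSE over M0505 cells (horizontal axis) for the 10 iron genes, with the 95% interval from limma as bars, none for *Cybrd1*, and dashed lines at 2-fold. The left panel holds all members, with *Cybrd1* at −6.37, and the right panel omits *Cybrd1* so that the others can be read, from *Steap3* at −1.86 to *Slc11a2* at 0.61.

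*Fth1* encodes the ferritin heavy chain, which oxidizes iron as it enters the shell. Its values were 12.24, 12.16 and 12.15 in M0505 cells and 12.18, 12.11 and 12.10 in STOSE cells. The lines overlapped. The log2 fold change was −0.05 (95% interval −0.19 to 0.08, adjusted p = 0.473), and centring each array on its gene median turned it to 0.15 (adjusted p = 0.0379). A further quantile normalization gave −0.16 (adjusted p = 0.0401), so its direction depended on the normalization. The highest value in the whole table was 12.81, so *Fth1* was read near the top of the scale, where array signals are known to be compressed.

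*Ftl1* encodes the ferritin light chain, which helps the iron core to form. It stood at 11.86, 11.68 and 11.73 in M0505 cells and at 11.99, 11.91 and 11.90 in STOSE cells. The STOSE arrays lay above the M0505 arrays by a narrow gap. The log2 fold change was 0.17 (95% interval 0.02 to 0.33, adjusted p = 0.0539). The probe set of *Ftl1* that was not used had means of 9.27 and 9.46, a difference of 0.19 in the same direction. Centring on the gene median gave 0.37 (adjusted p = 0.00103). Under the other alternatives the limma adjusted p lay on both sides of 0.05. It ranged from 0.00951 with an intensity trend and robust estimation to 0.164 without M0505 replicate 2. RefSeq lists 3 ferritin light chain pseudogenes and 2 of the heavy chain, and signals of near-identical copies may not be separable on this array. One of them, *Ftl2*, had its own row, at 11.69 ± 0.08 and 11.86 ± 0.08 (SD, n = 3), with a log2 fold change of 0.17. Without centring, the intervals of the ferritin chains thus reached from −0.19 to 0.33 on the log2 scale, and the centred *Ftl1* value of 0.37 lay beyond them.

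*Slc40a1* encodes ferroportin, the known exporter of iron from cells. Its values were 6.30, 5.54 and 5.84 in M0505 cells and 4.94, 4.36 and 4.58 in STOSE cells. The lines did not overlap, but both spread widely, over 0.77 and 0.58 on the log2 scale. It fell by 1.27 (standard error 0.20, adjusted p = 0.000836), a 2.40-fold difference. The STOSE mean of 4.63 ± 0.29 lay under the background of 4.74, and 1 of the 3 STOSE arrays was above it. Leaving out any 1 array gave 2.08-fold to 2.72-fold, the smallest of them without M0505 replicate 1.

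*Heph* encodes hephaestin, a membrane ferroxidase that works with ferroportin. It stood at 4.33, 4.27 and 4.38 in M0505 cells and at 4.10, 3.90 and 3.97 in STOSE cells. All 6 arrays lay under the background. The STOSE arrays were below the M0505 arrays (adjusted p = 0.00385, and 0.111 with centring on the gene median), but no level above that of silent genes can be read in either line, and no fold is given.

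*Ireb2* encodes iron regulatory protein 2, which binds the hairpins when iron is scarce. Its values were 9.93, 9.97 and 9.97 in M0505 cells and 9.82, 9.80 and 9.79 in STOSE cells. The lines did not overlap, although the log2 fold change was −0.16 (95% interval −0.28 to −0.03, adjusted p = 0.0362), a 1.11-fold difference. Centring each array on its gene median turned it to 0.0445 (adjusted p = 0.456). Without that centring the limma adjusted p still lay on both sides of 0.05. It was 0.013 with an intensity trend and robust estimation and 0.0525 with a replicate block. With each array left out in turn it lay between 0.0431 and 0.0962.

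The other genes of iron and heme handling were read from 7 lists of 97 genes, of which 96 had a row. Of these, 3 were called higher and 13 lower in STOSE cells, against the 4.90% and 7.59% of all genes given above, and the median log2 fold change was 0.02. With each array centred on its gene median, 8 were called higher and 9 lower. The members that moved do not share 1 step of the pathway, and they are given by list.

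Among 18 other uptake genes 3 were called lower and 0 higher. At the adjusted p alone, without a fold threshold, 6 were higher and 6 lower, against 31.6% and 24.8% of all genes. *Mcoln1*, a cation channel that releases iron from lysosomes, fell from 10.70 ± 0.18 to 8.93 ± 0.01 (SD, n = 3), a 3.41-fold difference (adjusted p = 8.92e-07). *Slc22a17*, a receptor for lipocalin 2, fell from 7.51 ± 0.15 to 6.02 ± 0.14, a 2.81-fold difference (adjusted p = 3.76e-06). *Lcn2*, lipocalin 2 itself, which binds iron through siderophores, fell from 6.35 ± 0.38 to 4.99 ± 0.53, a 2.57-fold difference (adjusted p = 0.00278), with 2 of 3 STOSE arrays above the background. *Lcn2* and *Slc22a17* were thus both lower in STOSE cells. In the other direction, *Lrp2* was higher by 1.99-fold (adjusted p = 9.47e-06) and *Slc39a14* by 1.82-fold (adjusted p = 4.04e-05), both under the threshold. With centring on the gene median, *Lrp2*, *Slc39a14* and *Steap1* were called higher. *Lrp2* was also called higher without M0505 replicate 1.

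Among 7 other storage and delivery genes 1 was called lower and 0 higher. *Ncoa4*, the cargo receptor that brings ferritin to the lysosome for iron release, fell from 11.36 ± 0.09 to 9.90 ± 0.09 (SD, n = 3), a 2.75-fold difference (adjusted p = 9.21e-07). *Fth1* and *Ftl1*, which encode the ferritin it acts on, differed by 1.04-fold and 1.13-fold.

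Among 11 measured export and hepcidin genes 1 was called higher and 1 lower. *Cp*, ceruloplasmin, a ferroxidase with the same task as hephaestin, rose from 4.80 ± 0.34 to 7.33 ± 0.24 (SD, n = 3), a 5.77-fold difference in signal (adjusted p = 5.50e-06). It was above the background on 1 of 3 M0505 arrays and on all 3 STOSE arrays, so the size of the fold depends on the background. *Bmp6*, a ligand known for inducing hepcidin when iron is plentiful, fell from 10.53 ± 0.04 to 5.33 ± 0.03, a 36.9-fold difference (adjusted p = 1.42e-09). All 3 STOSE arrays of *Bmp6* lay above but near the background of 4.74, which may limit the size of the fold. *Hamp*, hepcidin itself, lay under the background in both lines, at 2.43 and 2.55. *Hamp2*, the second hepcidin gene of the list, lay above it on all 3 arrays of each line. Its means were 5.43 ± 0.12 and 5.70 ± 0.37 (adjusted p = 0.199).

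Among 6 other iron sensing genes 2 were called lower and 0 higher. *Epas1*, which encodes hypoxia-inducible factor 2 alpha, known in the gut for inducing *Cybrd1*, *Slc11a2* and *Slc40a1*, fell from 8.05 ± 0.08 to 5.03 ± 0.21 (SD, n = 3), an 8.09-fold difference (adjusted p = 1.39e-07). All 3 STOSE arrays of *Epas1* lay above but near the background of 4.74, so the background may limit the size of the fold. *Hif1a*, a relative of *Epas1*, stood at 10.32 in both lines. *Bach1*, a heme-binding repressor of ferritin and heme oxygenase genes, was lower by 2.01-fold (adjusted p = 2.33e-06), at the edge of the threshold, and was not called with centring on the gene median or without M0505 replicate 1. *Aco1*, the other iron regulatory protein, differed by 0.01 on the log2 scale (9.91 ± 0.10 against 9.90 ± 0.03, adjusted p = 0.932).

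Among 9 heme synthesis genes 1 was called lower and 0 higher, and it was *Alas2*, the erythroid form of the first enzyme, which fell from 7.74 ± 0.29 to 4.87 ± 0.35 (SD, n = 3), a 7.34-fold difference (adjusted p = 4.57e-06), with 2 of 3 STOSE arrays above the background. Among 14 heme breakdown and transport genes 3 were called lower and 0 higher. *Slc46a1*, a transporter of folate and heme, fell from 10.15 ± 0.03 to 7.46 ± 0.10, a 6.47-fold difference (adjusted p = 1.86e-08). *Hp*, haptoglobin, which binds free hemoglobin, was lower by 2.13-fold (adjusted p = 0.000912) and *Blvrb*, a biliverdin reductase, by 2.10-fold (adjusted p = 0.000364). Neither was called with centring on the gene median or without M0505 replicate 1.

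Among 31 genes of mitochondrial iron and iron-sulfur clusters 2 were called higher and 2 lower. *Slc25a37*, mitoferrin 1, which brings iron into mitochondria, rose from 6.95 ± 0.18 to 8.45 ± 0.29 (SD, n = 3), a 2.84-fold difference (adjusted p = 4.19e-05). *Ciapin1*, a factor of cytosolic iron-sulfur assembly, rose by 2.04-fold (adjusted p = 1.09e-05). *Hscb*, a co-chaperone of cluster transfer, was lower by 2.46-fold (adjusted p = 1.59e-06) and *Fdxr*, ferredoxin reductase, by 2.26-fold (adjusted p = 2.16e-06), the latter not called with centring on the gene median.

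**Figure D3:**
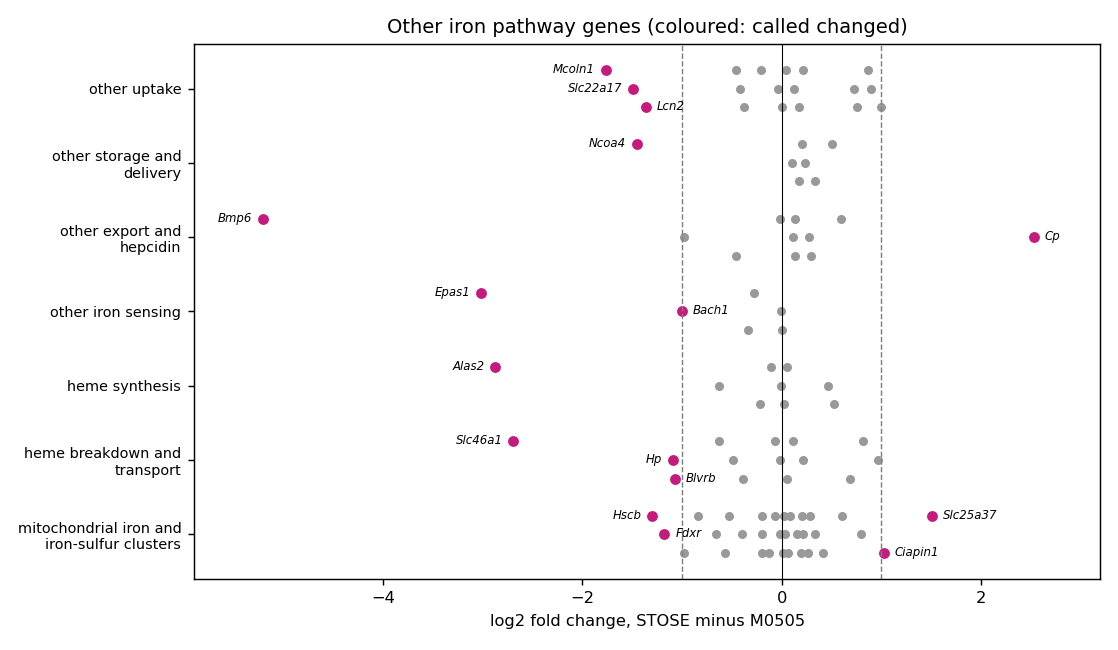
Log2 fold change of STOSE over M0505 cells (horizontal axis) for the 96 other iron and heme genes with a row, by list, with dashed lines at 2-fold and called genes coloured and named. *Bmp6* at −5.20 and *Cp* at 2.53 mark the ends, and most genes of every list lie between the dashed lines.

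To see whether a member moved with its surroundings, the 5 nearest tested genes on each side were read, in the RefSeq gene order of GRCm38.p6. Around *Cybrd1* on chromosome 2 the 10 neighbours had a median log2 fold change of 0.05, a lowest value of −1.02 and 1 gene called lower. Around *Steap3* on chromosome 1 the median was 0.15, and 0 of 10 neighbours were called. Around *Slc40a1*, also on chromosome 1, the median was 0.19, with 2 of 10 called lower and a lowest value of −2.98. The neighbour medians of the 3 lower members thus lay between 0.05 and 0.19, against 0.08 for all genes, of which 7.59% were called lower. *Slc11a2* on chromosome 15 was higher in STOSE cells while 4 of its 10 neighbours were called lower, and their median was −0.19. Around the other 6 members the medians lay between −0.33 and 0.14.

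**Figure D4:**
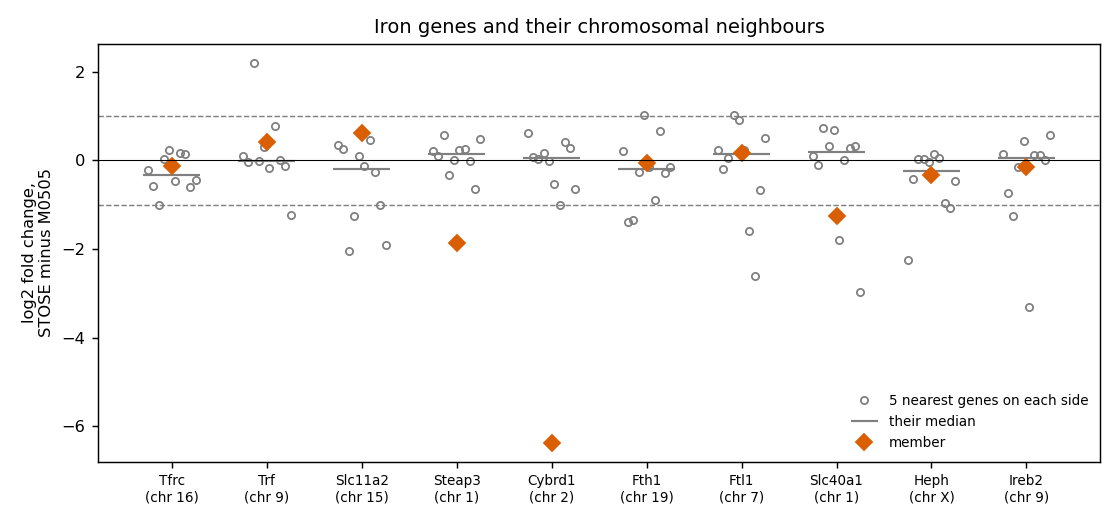
Log2 fold change of STOSE over M0505 cells (vertical axis) of each iron gene (diamond) and of the 5 nearest tested genes on each side (open circles, in gene order, with a line at their median), with dashed lines at 2-fold. The diamonds of *Cybrd1* and *Steap3* lie below all 10 of their neighbours, and that of *Slc40a1* lies below 8 of 10.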

How the data were processed

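Total RNA of M0505 and STOSE cells (n = 3 arrays each) was read on Affymetrix GeneChip arrays of the Mouse Gene ST design. The authors deposited log2 values from robust multi-array average (RMA), run in Affymetrix Expression Console per the labels, with 1 column per array. Versions, annotation release and genome build are not given in the sources used here. Each of the 6 array columns was matched to its sample by name. The table also holds the authors' mean of each line and 2 columns with their ratio and fold change of the lines, which belong to no sample, and none of these was used. Since arrays give no depth, their number sets the precision.

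Each of 20405 genes was represented by its brightest probe set on average. STOSE and M0505 arrays were compared with limma 3.58.1 (lmFit, eBayes; R 4.3.3). No covariate was used, p-values were adjusted after Benjamini-Hochberg over all genes, and the code was tested on simulated data. With 3 against 3 arrays an exact permutation p cannot go below 0.1, so none is given.

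The members and lists were chosen with earlier results of these data known. Genes named are the 10 members and, from the other iron lists, those called changed. Other names, such as further reductases, markers and *Hamp*, *Hamp2*, *Hif1a*, *Aco1*, *Ftl2*, *Lrp2* and *Slc39a14*, were added after their values were seen. In the lists, 12 genes were matched by an older symbol and *Hephl1* had no row. Alternatives were a further quantile normalization, centring, leaving out dim genes, the mean of probe sets, an intensity trend with robust estimation, the methods' t-test, other fold thresholds, a replicate block and each array left out. Centring on the median over all probe sets was added after seeing the data. RMA itself could not be varied, since probe signals were not used here.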

Additional observations from a re-analysis of the deposited data

How the results depend on the processing

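Counts of iron genes here include *Cybrd1*, which was listed for its fall, so its part in them shows no stability. The fold threshold moved the counts most. Without one, 6454 genes were higher and 5066 lower, 2 and 5 iron genes, and 27 and 34 of the other iron genes. At 4-fold, 186 genes were higher and 509 lower, 0 and 1 (*Cybrd1*) of the iron genes, and 1 and 4 of the other iron genes. Other iron genes called higher were 5 after a further quantile normalization and 8 after centring on the gene median. Of all genes, 1149 and 1466 were called higher at these settings. With each array left out in turn, 3 to 6 of the other iron genes were higher, with 6 without M0505 replicate 1, and 10 to 13 were lower. The same settings gave 955 to 1065 genes higher and 1508 to 1591 lower, and 0 iron genes higher and 3 lower throughout.

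By the methods' t-test 0 iron genes were higher and 3 lower, with or without adjustment. *Steap3* and *Slc40a1* were called lower under every alternative that kept them, except at 4-fold. *Slc40a1* left the table with the dimmest 50% of genes and *Heph* with the dimmest 25%. Directions reversed for *Tfrc* (0.082), *Fth1* (0.15) and *Ireb2* (0.0445) with centring on the gene median, and for *Tfrc* without M0505 replicate 1, its values with each array left out ranging from −0.27 to 0.13. Centring on the median over all probe sets, which adds 0.01, reversed none of the 10. Replicate numbers were not taken as pairs, as the sample titles name no pairing. Same-numbered deviations from the line means correlated at 0.26, 0.042 and 0.25, others at −0.29 to 0.12. STOSE replicate 2 correlated best with M0505 replicate 3. With a replicate block in limma the adjusted p of *Slc40a1* was 1.45e-05 (0.000836 without) and that of *Steap3* 5.27e-06 (1.48e-06 without). The replicate block gave 1001 genes higher and 1548 lower, 0 and 3 iron genes, and 3 and 13 other iron genes.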
